A study of Homo sapiens with 8 samples.

Results

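The AP-1 transcription factor genes described here are FOS, FOSB, FOSL1, FOSL2, JUN, JUNB, JUND, BATF and ATF3. They are 9 of the 17687 named genes on the array, taken by the gene symbol that the platform annotation gives to each probe set, and each was measured by 1 probe set. RNA came from CCRF-CEM, an established line grown from T-cell acute lymphoblastic leukaemia (T-ALL), so every array reports on 1 line. Cells given OICR-9429 (1 µM for 1 h, 4 arrays) and untreated cells (4 arrays) were all then mixed into bovine type I collagen (1.7 mg/mL) and held there in 3D for 1 h. OICR-9429 is a small molecule that blocks the contact between WDR5 and the MLL family of histone methyltransferases. The labels number the biological replicates 1 to 4 in each group, mention no solvent for the untreated cells, and do not say whether a number stands for a day, a passage or a gel.

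AP-1 is a dimer that binds DNA through a basic region and holds together through a leucine zipper. FOS proteins cannot pair with one another and need a JUN partner, while JUN proteins can also pair among themselves. FOS, FOSB, JUN, JUNB and ATF3 belong to the immediate early genes, whose transcripts appear soon after a stimulus without new protein synthesis and decay quickly. In T cells AP-1 acts with NFAT downstream of the antigen receptor, and BATF takes the place of a FOS protein in dimers that bind with IRF4.

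Values are on the log2 scale, where a difference of 1 is 2-fold. Levels of different genes come from different probes and are not compared. Array medians lay between 6.38 and 6.46. Over all 21448 probe sets, replicate number held 85.5% of the variance and treatment 3.93%, and the deviations of its 2 arrays correlated at 0.566 to 0.865. The T-lineage markers CD3D, CD3E, PTPRC and LCK measured 10.98 to 11.57, 11.61 to 11.97, 11.28 to 11.86 and 10.02 to 11.64 with OICR-9429, against 11.10 to 11.74, 11.66 to 11.94, 11.14 to 11.97 and 10.51 to 11.64 in untreated cells. The list of 10 also held CD3G, CD7, CD5, CD4, TAL1 and CD2. Of these, CD2 measured 6.09 to 7.13 with OICR-9429, against 5.96 to 7.16 in untreated cells. Signal over background is not known here, so no marker can be called absent. The B-cell marker CD79A measured 8.90 to 9.81 with OICR-9429, against 9.12 to 9.92 in untreated cells. CD79B, PAX5 and MS4A1, the other B-cell markers measured, stood at 7.67 to 8.08, 6.35 to 6.56 and 3.63 to 4.15 with OICR-9429. Untreated cells gave 7.65 to 8.39, 6.04 to 6.82 and 3.28 to 3.95.

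Among the JUN genes, JUN differed most between replicate numbers and hardly at all with OICR-9429. JUN, the main DNA-binding partner of FOS proteins, measured 6.91, 8.71, 10.15 and 9.80 with OICR-9429 at numbers 1 to 4, against 6.71, 8.76, 10.08 and 9.87 in untreated cells. The 2 arrays of a number were within 0.20 of each other, while the means of the numbers spanned 3.31, or 9.88-fold, a wider span than that of 99.8% of probe sets. The 4 numbers stood in the order 1, 2, 4, 3 from low to high, and no neighbours in that order overlapped. Number held 99.8% of the variance of JUN and treatment 0.0208%. JUND, which tends to be expressed more steadily than JUN, measured 7.85, 8.08, 8.48 and 8.76 with OICR-9429, against 7.65, 7.77, 8.65 and 8.62 in untreated cells. Its lower 2 numbers overlapped with each other, as did its higher 2, and the 2 sets lay apart. JUNB, which can restrain JUN activity, measured 7.78, 7.38, 7.36 and 8.42 with OICR-9429, against 7.50, 7.30, 7.50 and 8.35 in untreated cells. Number 4 alone stood apart for JUNB, and number 1 was not its lowest.

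The FOS genes did not follow a common pattern over the numbers. FOSB measured 5.19, 5.80, 6.27 and 6.45 with OICR-9429, against 5.12, 5.86, 6.63 and 6.21 in untreated cells, in the same low-to-high order of numbers as JUN. Numbers 3 and 4 overlapped for FOSB. FOS itself measured 6.04, 6.53, 6.36 and 7.42 with OICR-9429, against 6.37, 6.31, 6.66 and 6.79 in untreated cells. Its numbers 1, 2 and 3 overlapped as neighbours and number 4 stood above them. FOSL2, which lacks the strong activation domain of FOS, measured 8.06, 8.72, 8.62 and 8.66 with OICR-9429, against 7.93, 8.64, 8.43 and 8.46 in untreated cells. Only number 1 stood apart for FOSL2, below the other numbers. FOSL1, which likewise lacks that domain, measured 5.60, 4.74, 5.68 and 5.43 with OICR-9429, against 5.34, 5.42, 5.21 and 5.67 in untreated cells, and all neighbouring numbers overlapped. For FOSL1, 60.0% of the variance lay neither with number nor with treatment, against 26.1% for FOS and 0.173% for JUN.

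ATF3 and BATF, the members outside the FOS and JUN subfamilies, differed in their order over the numbers. ATF3, a stress-induced gene whose protein represses transcription as a homodimer, measured 6.82, 8.08, 8.59 and 8.48 with OICR-9429, against 6.93, 7.76, 8.41 and 8.24 in untreated cells. Its numbers had the order of JUN, with numbers 3 and 4 overlapping. BATF measured 7.36, 6.88, 6.89 and 7.53 with OICR-9429, against 7.47, 7.08, 6.75 and 7.40 in untreated cells. BATF was low at numbers 2 and 3 and high at numbers 1 and 4, and these 2 sets of arrays lay apart.

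**Figure D1:**
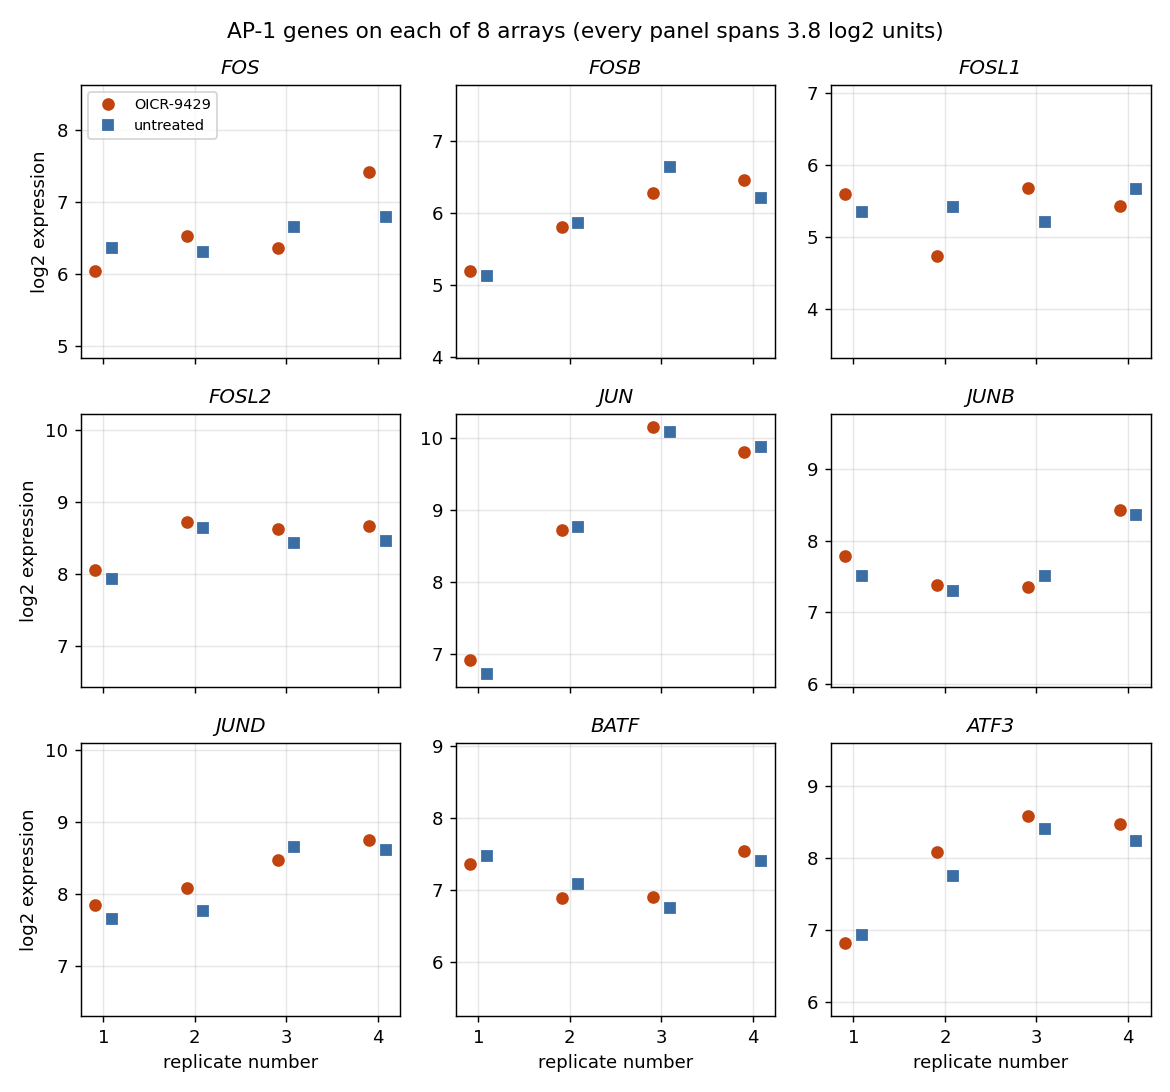
Log2 expression (vertical axis, 3.8 units in every panel) of the 9 AP-1 genes at replicate numbers 1 to 4, with OICR-9429 as circles and untreated cells as squares, 1 point per array. JUN spans 3.31 log2 units between number means while its 2 arrays of a number stay within 0.20, and FOSL1 shows no such separation.

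To compare the numbers, limma was fitted to all probe sets with terms for number and treatment, and a Benjamini-Hochberg adjusted p under 0.05 was the threshold. Since the 2 arrays of a number pair, these p-values rest on how the OICR-9429 minus untreated difference varies, not on the spread between separate cultures. For any difference between numbers, 7 of 9 genes passed (JUN, ATF3, FOSB, JUNB, JUND, FOSL2 and BATF, adjusted p from 9.95e-05 to 0.0158), against 50.3% of all probe sets. FOS (adjusted p = 0.0518) and FOSL1 (adjusted p = 0.403) did not pass. JUN, ATF3 and JUND passed under every alternative run. FOSL2 lost this call without number 1 (adjusted p = 0.608) and without the OICR-9429 or untreated array of that number (0.0872 and 0.0761), FOSB without number 1 (0.0587) and JUNB without number 4 (0.375). BATF lost it without number 3, number 4 or the untreated array of number 3 (0.0704, 0.0646 and 0.0766). FOS gained it in 5 alternatives, with adjusted p = 0.0403 after quantile normalization, 0.0195 among probe sets above the median level, 0.0144 with an intensity trend, 0.0302 without number 3 and 0.0142 without the untreated array of number 4.

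At number 1, 5 of 9 genes were lower than the mean of the other numbers and 0 higher, where 6.14% of all probe sets were lower and 10.6% higher (limma). JUN stood at -2.75 ± 0.115 (SE, log2), which is 6.73-fold lower (adjusted p = 6.3e-05). ATF3 differed by -1.39 ± 0.125, or 2.61-fold (adjusted p = 0.00111), and FOSB by -1.05 ± 0.139 (adjusted p = 0.00386). JUND and FOSL2 differed less, by -0.64 ± 0.129 and -0.59 ± 0.108 (adjusted p = 0.0154 and 0.0113). FOS stood at -0.47 ± 0.193 (adjusted p = 0.131), JUNB at -0.08, FOSL1 at 0.11 and BATF at 0.33 (adjusted p = 0.694, 0.75 and 0.105), and none of these 4 passed. BATF did pass as higher among probe sets above the median level (0.33, adjusted p = 0.0348) and without number 4 (0.52, adjusted p = 0.045), and FOS as lower without the untreated array of number 4 (-0.60, adjusted p = 0.033). The median of the 9 differences was -0.59, and -0.03 over all named genes. JUN and ATF3 kept the call when any array or any other number was left out. With number 1 reduced to 1 array, 2 genes remained called, and FOSB, JUND and FOSL2 had adjusted p = 0.068, 0.111 and 0.111 without the OICR-9429 array and 0.0876, 0.176 and 0.126 without the untreated array. Their differences were then -1.11, -0.70 and -0.58, and -0.98, -0.59 and -0.61, close to those from both arrays. Number 1 is then a single array, which is assumed to vary like the other numbers. JUND also lost its call without number 4, at -0.50 (adjusted p = 0.0663).

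The bases before the start sites of these 5 genes, and of FOS for comparison, are shown because these genes were the ones called lower at number 1. They are 250 bases each from RefSeq on GRCh38.p14, read 5′ to 3′ in the direction of transcription and ending at the base before the start. ATF3 has 2 start sites in that table. Capitals mark TGANTCA (the AP-1 site), TGANNTCA (its longer form, which includes the cAMP response element), TGACGT (the first bases of that element), TATAAA and the CArG box bound by SRF, searched on both strands. TGACGTCA counts under both TGANNTCA and TGACGT.
JUN (chr1:58784048-58784297, - strand): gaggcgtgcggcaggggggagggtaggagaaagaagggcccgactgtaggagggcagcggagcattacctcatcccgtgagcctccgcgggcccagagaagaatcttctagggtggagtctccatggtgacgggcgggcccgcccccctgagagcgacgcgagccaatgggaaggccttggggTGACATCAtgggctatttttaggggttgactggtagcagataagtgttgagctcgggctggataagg
ATF3, upstream start (chr1:212565157-212565406, + strand): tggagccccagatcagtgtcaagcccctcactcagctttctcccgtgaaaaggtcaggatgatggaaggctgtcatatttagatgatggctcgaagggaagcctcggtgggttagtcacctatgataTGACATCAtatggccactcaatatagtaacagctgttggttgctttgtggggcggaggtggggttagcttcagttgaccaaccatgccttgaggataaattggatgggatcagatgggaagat
ATF3, downstream start (chr1:212614768-212615017, + strand): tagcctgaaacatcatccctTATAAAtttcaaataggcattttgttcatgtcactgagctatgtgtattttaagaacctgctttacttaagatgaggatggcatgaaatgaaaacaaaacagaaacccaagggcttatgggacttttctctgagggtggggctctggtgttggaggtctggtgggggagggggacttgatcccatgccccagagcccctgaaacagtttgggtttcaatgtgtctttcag
JUND (chr19:18281623-18281872, - strand): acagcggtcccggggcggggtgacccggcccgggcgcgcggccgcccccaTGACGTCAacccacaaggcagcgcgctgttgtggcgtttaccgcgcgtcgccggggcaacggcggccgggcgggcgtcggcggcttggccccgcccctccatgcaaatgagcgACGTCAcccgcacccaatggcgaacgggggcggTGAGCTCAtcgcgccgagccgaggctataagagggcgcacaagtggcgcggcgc
FOSB (chr19:45467746-45467995, + strand): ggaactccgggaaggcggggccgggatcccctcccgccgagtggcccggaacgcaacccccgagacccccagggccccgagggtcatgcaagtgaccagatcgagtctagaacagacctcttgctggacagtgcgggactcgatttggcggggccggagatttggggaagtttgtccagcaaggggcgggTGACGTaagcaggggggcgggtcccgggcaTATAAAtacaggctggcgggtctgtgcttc
FOSL2 (chr2:28392608-28392857, + strand): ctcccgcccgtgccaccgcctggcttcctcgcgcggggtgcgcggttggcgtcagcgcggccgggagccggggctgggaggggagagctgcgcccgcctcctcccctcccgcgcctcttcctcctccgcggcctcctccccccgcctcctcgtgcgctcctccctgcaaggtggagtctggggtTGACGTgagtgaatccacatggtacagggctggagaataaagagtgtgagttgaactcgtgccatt
FOS (chr14:75278578-75278827, + strand): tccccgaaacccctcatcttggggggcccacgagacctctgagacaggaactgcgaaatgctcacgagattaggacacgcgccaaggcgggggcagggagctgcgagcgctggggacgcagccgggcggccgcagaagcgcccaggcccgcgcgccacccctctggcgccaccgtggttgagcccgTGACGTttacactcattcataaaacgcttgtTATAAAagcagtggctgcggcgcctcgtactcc

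The window of JUN holds TGACATCA starting 67 bases before the start, and the window of the upstream ATF3 start holds the same 8 letters 123 bases before it. JUND holds TGACGTCA at 200 bases, a reverse-strand TGACGT at 87 and TGAGCTCA at 54. FOS, FOSB and FOSL2 each hold TGACGT at 60 to 66 bases before the start, and FOS and FOSB also hold TATAAA. Of the 9 windows found for 8 of the 9 genes (FOSL1 was not matched), TGANNTCA stood in 3 and TGACGT in 4, against 10.1% and 7.1% of all 35116 windows in the table. TGANTCA and the CArG box stood in 0 of the 9 windows, and in 6.57% and 1.16% of all windows. Bases further upstream were not searched, so these counts do not show that FOS or any other gene lacks either motif there. These are matches of letters in a short window and describe no binding.

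At number 4, 7 of 9 genes were higher than the mean of the other numbers and 0 lower, where 26.3% of all probe sets were higher and 25.5% lower (limma). JUN was higher by 1.28 ± 0.115 (SE, adjusted p = 9e-05), JUNB by 0.92 ± 0.122, or 1.89-fold (adjusted p = 0.000521), and FOS by 0.73 ± 0.193 (adjusted p = 0.014). JUND, ATF3, FOSB and BATF were higher by 0.61, 0.60, 0.52 and 0.39 (adjusted p from 0.00474 to 0.0267). FOSL1 at 0.22 and FOSL2 at 0.16 did not pass (adjusted p = 0.413 and 0.246). The FOS call rests on the OICR-9429 array of number 4. Without that array FOS stood at 0.34 (adjusted p = 0.211), FOSB and BATF also lost their calls (adjusted p = 0.171 and 0.201), and 4 genes remained called. The BATF call was lost in 7 of 15 alternatives, with differences of 0.27 to 0.49 in those 7. The low values at number 1 are part of the mean that number 4 is set against. Without number 1, JUN was higher by 0.41, ATF3 by 0.15 (adjusted p = 0.34) and FOSB by 0.19 (adjusted p = 0.352), while JUNB stayed called, as it did in each of its 15 alternatives.

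At numbers 2 and 3 few genes passed. JUNB and JUND were lower at number 2, by -0.48 and -0.41 (limma, adjusted p = 0.0223 and 0.0479), where 11.6% of all probe sets were lower and 15.4% higher. These calls were lost in 5 and 9 of 15 alternatives, among them those without number 4 (adjusted p = 0.384 and 0.32). JUN and ATF3 were higher at number 3, by 1.66 and 0.78 (adjusted p = 0.000919 and 0.0319), where 1.18% of all probe sets were higher. The JUN call at number 3 held in 15 of 15 alternatives, with 0.83 without number 1, and the ATF3 call in 8 of 15, with 0.36 without number 1 (adjusted p = 0.119).

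**Figure D2:**
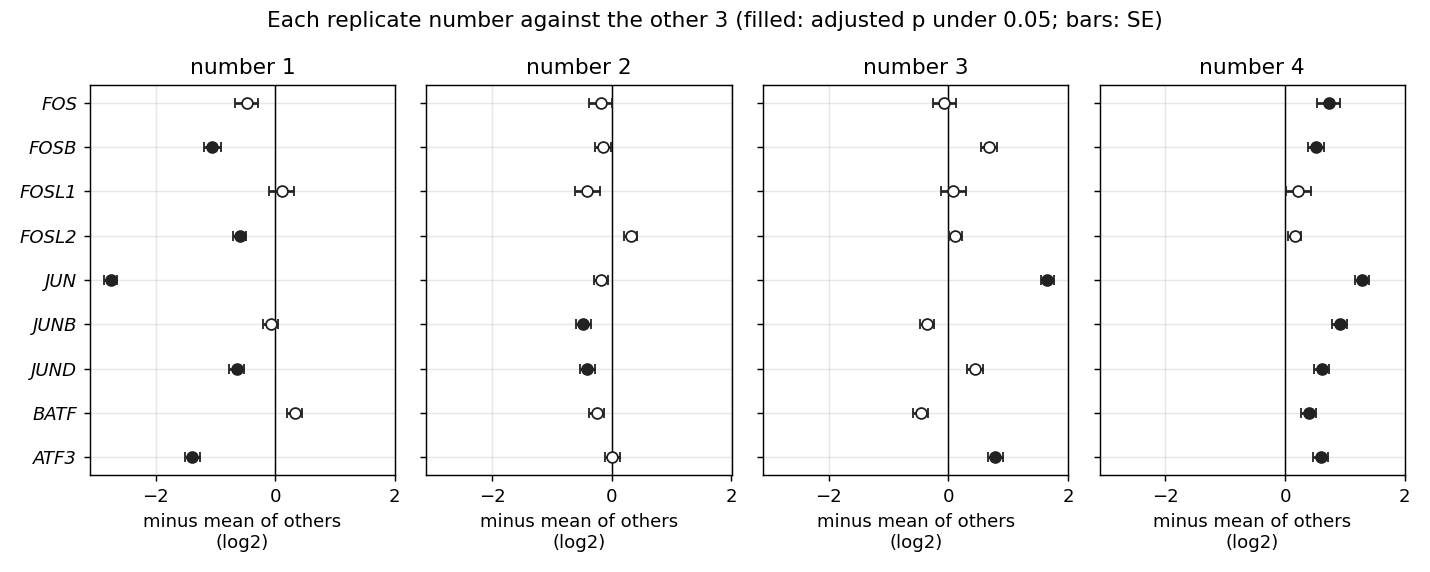
Log2 difference of each replicate number from the mean of the other 3 (horizontal axis) for the 9 AP-1 genes, with SE bars from limma. Filled points pass an adjusted p of 0.05. JUN lies at -2.75 at number 1 and at 1.66 and 1.28 at numbers 3 and 4, while JUNB passes at numbers 2 and 4 only.

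FOS and JUN genes agreed over the numbers in some pairings and not in others. Of the 12 pairings of a FOS gene with a JUN gene, 3 put the 4 numbers in the same order (FOSB with JUN, FOS with JUND, FOSL1 with JUNB), 7 had the same lowest number and 5 the same highest. The FOSL1 and JUNB match rests on FOSL1 numbers that all overlapped. In the FOS and JUND match some neighbouring numbers overlapped in both genes, and in that of FOSB with JUN numbers 3 and 4 of FOSB did. None of the 3 matches is thus one of fully separate numbers. FOS and JUN ordered 5 of 6 pairs of numbers alike, and they differed in which was highest, number 4 for FOS and number 3 for JUN. FOSL2 agreed least, with 2 to 4 of 6 pairs of numbers in the order of a JUN gene. The span of the number means was 1.87-fold for FOS, against 9.88-fold for JUN, and 2.45-fold for FOSB. With 4 numbers no correlation was calculated.

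OICR-9429 gave no AP-1 gene past the threshold. With limma on all 8 arrays, 0 of 9 genes were called and 0 had an unadjusted p under 0.05, against 0% and 0.49% of all probe sets. With the replicate number as a block, which compares the 2 arrays of each number, 0 of 9 again passed and 0 had an unadjusted p under 0.05, where 5.55% of all probe sets did. The groups overlapped for each of the 9 genes, and 0.737% of all probe sets did not overlap.

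Within each number, the OICR-9429 minus untreated differences of JUN were 0.20, -0.05, 0.07 and -0.07. JUN averaged 8.89 ± 1.46 with OICR-9429 and 8.86 ± 1.54 in untreated cells (SD, n = 4 each), a difference of 0.04 with a 95% interval of -1.88 to 1.96. With the replicate block that interval was -0.19 to 0.27, or 0.876-fold to 1.20-fold. The differences of FOS were -0.33, 0.22, -0.30 and 0.63, opposite in sign to those of JUN at each of the 4 numbers. That is the lowest of the 12 pairings of a FOS with a JUN gene, which ran up to 4 of 4 numbers with the same sign for FOSL1 with JUN, and the other 10 pairings had 1 to 3. The JUN differences at numbers 2 to 4 were 0.07 or less in size. The opposite signs of FOS and JUN thus do not by themselves show opposite responses to OICR-9429. FOS averaged 6.59 ± 0.59 with OICR-9429 and 6.53 ± 0.23 in untreated cells (SD, n = 4 each), and its interval with the block was -0.33 to 0.44. Without the OICR-9429 array of number 4, the FOS difference was -0.22.

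FOSL2 was the only one of the 9 with the same sign at all 4 numbers, at 0.13, 0.08, 0.19 and 0.20. Over all probe sets 12.6% had 1 sign at all numbers, so 1 of 9 is near that share. FOSL2 averaged 8.52 ± 0.31 with OICR-9429 and 8.37 ± 0.30 in untreated cells (SD, n = 4 each), a difference of 0.15 with an interval of -0.07 to 0.37 with the block (limma, adjusted p = 0.844). ATF3 stood at -0.11, 0.32, 0.18 and 0.24 within the numbers, and JUND at 0.20, 0.31, -0.17 and 0.14. Their mean differences were 0.16 and 0.12, with block intervals of -0.09 to 0.41 and -0.14 to 0.38.

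The remaining 4 genes had mean differences between -0.05 and 0.07. JUNB stood at 0.28, 0.08, -0.14 and 0.07 within the numbers, FOSB at 0.07, -0.06, -0.36 and 0.24, and BATF at -0.11, -0.20, 0.14 and 0.13. FOSL1 had the largest swings of the 9, at 0.26, -0.68, 0.47 and -0.24. Over the 9 genes, 6, 5, 5 and 7 were higher with OICR-9429 at numbers 1 to 4. With the block, the 9 intervals together ran from 0.723-fold, the lower end for FOSL1 (-0.47), to 1.36-fold, the upper end for FOS (0.44). These intervals are not adjusted for the number of genes.

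**Figure D3:**
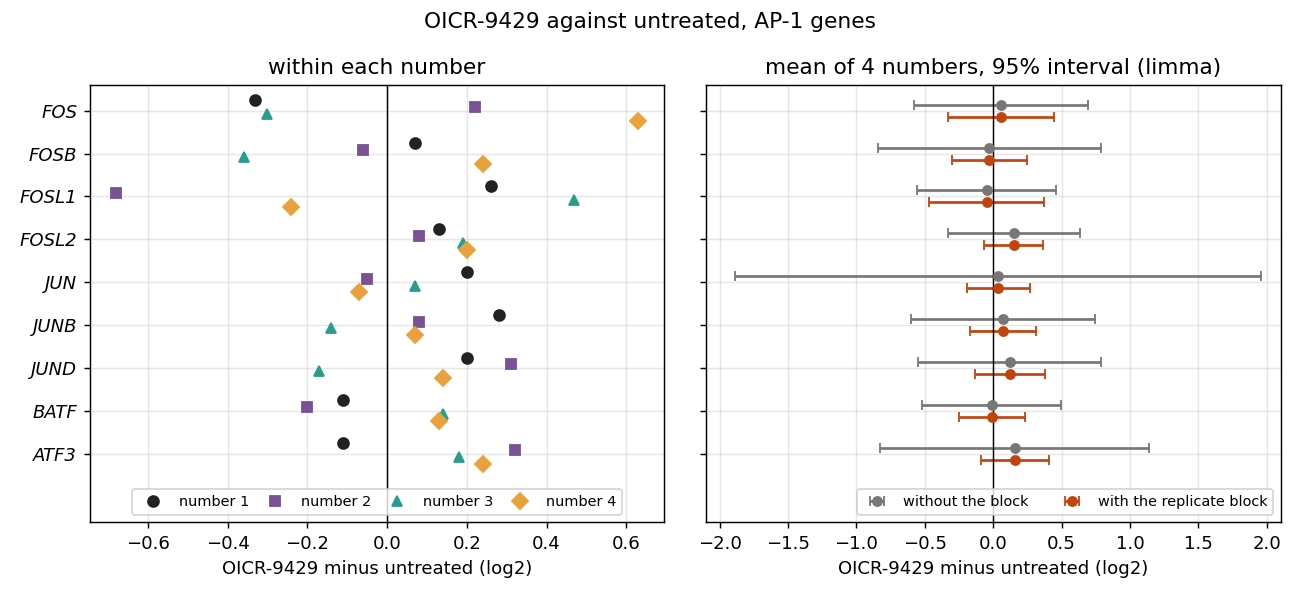
OICR-9429 minus untreated on the log2 scale for the 9 AP-1 genes. The left panel shows the difference within each replicate number, and the right panel the mean of the 4 with its 95% interval from limma without and with the replicate block. The JUN interval is -1.88 to 1.96 without the block and -0.19 to 0.27 with it, and every interval includes 0.

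The genes with profiles nearest to JUN over the 8 arrays were taken by the root mean square difference of mean-centred log2 values, a description that rests on 4 pairs of arrays. Nearest was EGR1, an immediate early zinc finger factor, at a distance of 0.469, where JUN itself varied by 1.3 around its mean. EGR1 measured 6.10, 8.90, 9.99 and 10.43 with OICR-9429 at numbers 1 to 4, against 5.93, 9.05, 9.94 and 9.92 in untreated cells. ALDOC (aldolase C, a glycolytic enzyme), BCL6 (a transcriptional repressor), CD48 (a lymphocyte surface receptor) and JAM3 (a junctional adhesion molecule) followed at distances of 0.516 to 0.537. All 5 were low on both arrays of number 1, which follows from their choice by nearness to JUN on these same arrays.

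By the same measure, CFAP43, ZIC2, LRRD1, WFDC12 and HK2 lay within 0.0579 to 0.114 of FOS, which itself varied by 0.389. CFAP43, a cilium gene, measured 2.82, 3.26, 3.21 and 4.25 with OICR-9429, against 3.13, 3.21, 3.44 and 3.51 in untreated cells. HK2, which encodes hexokinase 2, measured 6.91, 7.65, 7.46 and 8.48 with OICR-9429, against 7.17, 7.43, 7.60 and 7.75 in untreated cells. Each of the 5 had its highest value on the OICR-9429 array of number 4, as FOS had. That too follows from their choice by nearness to FOS on these arrays and is no separate result. The distance is not scaled by how much a gene varies, so a gene as near to FOS could not also be as near to JUN, and the makeup of the 2 sets of neighbours was not compared.

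**Figure D4:**
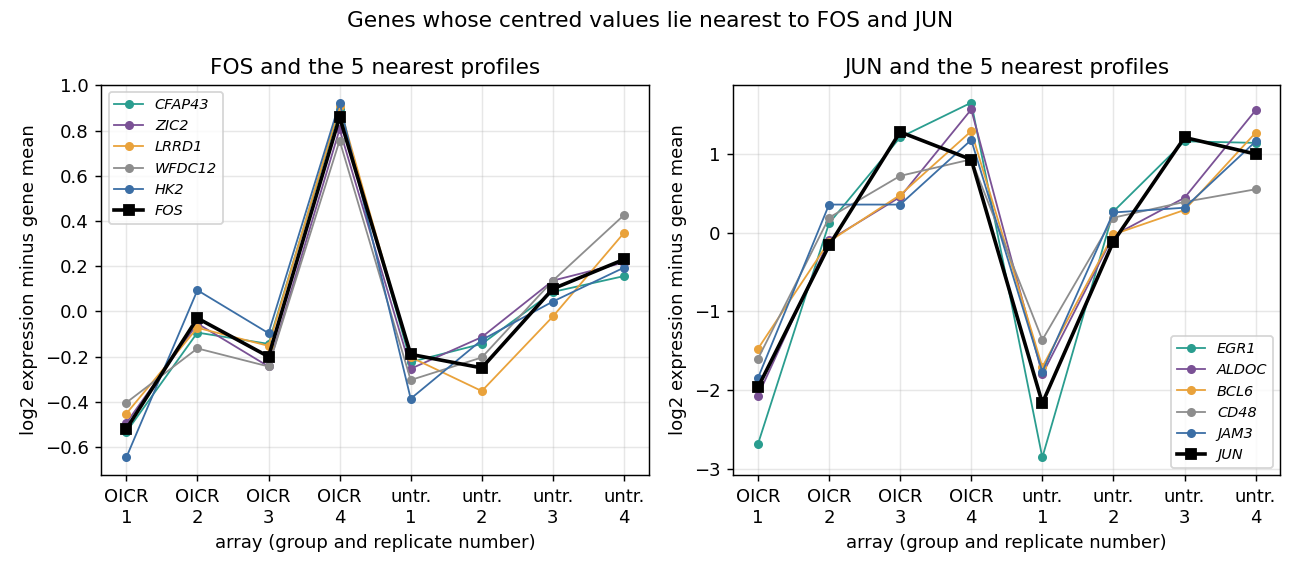
Log2 expression minus each gene's mean on the 8 arrays, for FOS (left) and JUN (right) as black squares and the 5 genes with the nearest profiles as coloured circles. FOS and its neighbours peak on the OICR-9429 array of number 4, and JUN and its neighbours are lowest on both arrays of number 1. The neighbours were chosen by nearness on these same arrays, so the shared extremes follow from the choice.

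Most other immediate early genes were also lower at number 1. Of 14 measured, 12 were lower and 0 higher, with a median difference of -1.17, against 6.14% lower over all probe sets (limma). EGR1 differed by -3.69 ± 0.144 (SE), NR4A1, a nuclear receptor, by -1.75 ± 0.167 and IER3 by -1.26 ± 0.116 (limma, adjusted p = 0.00132 or less). At number 4, 9 of the 14 were higher and 3 lower, where 26.3% of all probe sets were higher and 25.5% lower. The 3 lower genes, a share near that of all probe sets, were EGR3 (-0.60), NR4A1 (-0.87) and NR4A3 (-1.71). With OICR-9429, 0 of the 14 passed, and CCN1, with the smallest unadjusted p among them, stood at -0.23.

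Among 17 measured genes that AP-1 is known to drive, 5 were lower at number 1 and 0 higher, against 6.14% and 10.6% of all probe sets. CD69, an early activation marker of T cells, differed by -2.29 ± 0.127 (SE), VEGFA by -1.93 ± 0.164 and PLAU, which encodes urokinase, by -1.43 ± 0.139 (limma, adjusted p = 0.00136 or less). The list's median was -0.24. IL2RA and CXCL8 also passed, at -0.43 and -0.70. At number 4, 9 of the 17 were higher and 0 lower, with a median of 0.39, where 26.3% of all probe sets were higher and 25.5% lower. With OICR-9429, 0 of the 17 passed, and HMOX1 had the smallest unadjusted p, at -0.20.

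The kinases and factors that act on FOS and JUN promoters or proteins gave 0 of 14 past the threshold at number 1, with a median of 0.08. Over all probe sets, 6.14% were lower and 10.6% higher at that number. MAP2K2, MAPK3 and MEF2D had the smallest p there, at -0.38, -0.35 and -0.36 (limma, adjusted p = 0.068, 0.06 and 0.0789). SRF stood at 0.25 and ELK1 at 0.31. At number 4, 3 were higher, near the 26.3% of all probe sets, and 6 lower, where 25.5% of all probe sets were. MAP2K1, with the smallest unadjusted p of this list for OICR-9429, stood at 0.12, and 0 of 14 passed.

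Of 7 other bZIP genes, 1 was lower at number 1 (MAFF, a small MAF protein, -0.43) and 1 higher (BATF3, a relative of BATF, 0.65), near the 6.14% and 10.6% of all probe sets. Number 4 had 4 of the 7 higher and 1 lower, where 26.3% of all probe sets were higher and 25.5% lower. With OICR-9429, 0 of the 7 passed, with MAFF at -0.22. JDP2, a JUN-binding repressor, had the third smallest p at number 1 and did not pass, at -0.32. Among 5 genes of mRNA decay and stability, ZFP36 and ZFP36L1, which bind AU-rich elements and speed decay, were lower at number 1 by -0.56 and -0.43, and ELAVL1, which stabilises such transcripts, was higher by 0.44 (limma, adjusted p = 0.0443 or less). These calls at number 1 are 2 lower and 1 higher of 5, against 6.14% and 10.6% of all probe sets. ZFP36L1 stood at -0.11 with OICR-9429, the smallest unadjusted p of the 5, and did not pass.

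**Figure D5:**
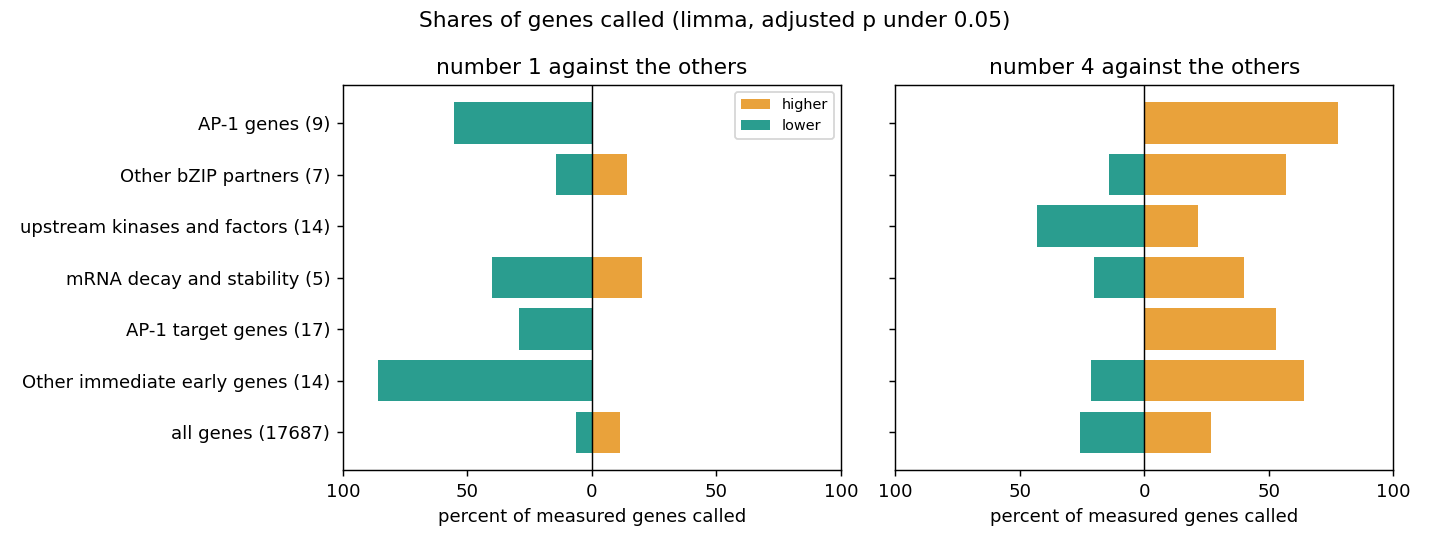
Share of measured genes called higher (right of 0) or lower (left of 0) at numbers 1 and 4 against the other numbers, in percent, for the AP-1 genes, related lists and all named genes, with the number measured in brackets. At number 1, 5 of 9 AP-1 genes and 12 of 14 other immediate early genes were lower and 0 of either were higher.

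Markers of other cell types moved at the same numbers in part. ITGAM was lower at number 1 among 5 myeloid markers, and so were HBA1 and PF4 among 4 of erythroid cells and megakaryocytes. EPCAM was higher there among 6 fibroblast and epithelial markers, and 0 of 4 B-cell markers passed. At number 1, 6.14% of all probe sets were lower and 10.6% higher (limma). Lists this short cannot set a count of 0 or 1 apart from those shares. The mean of the myeloid list was 5.15 at number 1, against 5.33 to 5.52 at the other numbers, and that of the erythroid and megakaryocyte list 6.04, against 6.16 to 6.55. Of 10 T-lineage markers, 2 were lower at number 1 (CD4 and TAL1, at -1.10 and -0.42), and the list mean was 9.77, against 9.68 to 10.24. At number 4, where 26.3% of all probe sets were higher and 25.5% lower, 5 T-lineage markers were higher (CD3D, CD7, CD5, LCK and CD4) and 2 lower (CD3G and PTPRC). The myeloid markers CD14 and CSF1R, HBA1, the fibroblast markers COL1A1 and COL1A2 and the B-cell marker CD79A were also higher there, and EPCAM and MS4A1 lower. Every array reports on 1 line, so these values are transcript levels in that line and not counts of other cell types. The part of these markers in the AP-1 values was not tested. In bulk RNA a change in some of the cells and a change in all of them cannot be told apart.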

How the data were processed

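Per the submitters' processing notes, the authors used RMA and Transcriptome Analysis Console, with version and genome build not given in the sources used here. Labelling, per the labels' protocols, used the GeneChip WT PLUS Reagent kit. The deposited values are log2 expression per probe set, with 21448 probe sets and 8 arrays. No scanner file was analysed here, so background and scan batch were not examined. Gene symbols are those of the platform annotation, updated by Entrez ID from RefSeq GRCh38.p14: 17709 had 1 symbol, and 20 genes with several probe sets were represented by that with the highest mean, which leaves the 17687 named genes. Promoter sequences are RefSeq's on that build.

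Groups were compared with limma 3.58.1 in R 4.3.3 (lmFit, eBayes, two-sided, Benjamini-Hochberg over all probe sets, threshold 0.05), without covariates. Sample titles give the replicate numbers. Deviations of same-numbered arrays from their group means correlated at 0.696, 0.748, 0.566 and 0.865 across probe sets for numbers 1 to 4, so the numbers pair the samples, and the fit was repeated with number as a block. The numbers were compared in a model with number and treatment. The code was tested on simulated data. The labels call the replicates biological and do not say what separates them, so the p-values cover only the spread among these arrays. The number of arrays limits precision.

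Named genes were the 9 AP-1 genes, the 5 profiles nearest to FOS and to JUN, and, from each of the 5 related gene lists, the 3 with the smallest p at number 1 and the 1 with the smallest p for OICR-9429. The other genes given with values (markers, SRF, ELK1, IL2RA, CXCL8, EGR3 and NR4A3) were added after their values were seen. The members and lists were chosen with earlier results of these data known.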

Additional observations from a re-analysis of the deposited data

Results flagged for a closer look

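Of 18 groups of 4 arrays (9 AP-1 genes in 2 groups), 1 held an array far from the other 3, and chance flags about 1 in 20. FOSL2 measured 8.06 on the OICR-9429 array of replicate 1, against 8.62 to 8.72 on the other OICR-9429 arrays. The untreated array of the same number was also the lowest of its group, at 7.93.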

How the results depend on the processing

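The count of AP-1 genes called with OICR-9429 was 0 with the replicate block and under all 12 other alternatives run. Leaving out 1 array moved the differences of those genes, none of which passed, over ranges of -0.22 to 0.24 (FOS), -0.31 to 0.22 (FOSB), -0.15 to 0.16 (FOSL1), 0.0050 to 0.30 (FOSL2), -0.68 to 0.70 (JUN), -0.16 to 0.30 (JUNB), -0.054 to 0.28 (JUND), -0.15 to 0.088 (BATF) and -0.14 to 0.55 (ATF3). With quantile normalization the FOSB and BATF differences turned to 0.019 and 0.0016, and with arrays centred on their medians BATF turned to 0.015. The count for any difference between numbers ran from 5 to 8. The count at number 1 ran from 2 to 6, at number 2 from 0 to 5, at number 3 from 1 to 5 and at number 4 from 4 to 8 (4 to 7 without single arrays). At number 3 it was 4 among probe sets above the median level (which leaves out FOSB and FOSL1) and 5 with an intensity trend and robust prior. Leaving out arrays or numbers moved FOSL1 at number 1 over -0.093 to 0.32, JUNB at number 1 over -0.27 to 0.26 and FOSL2 at number 4 over -0.043 to 0.30, and FOSL2 at number 4 stood at 0.42 with quantile normalization (adjusted p = 0.0137, limma). The number fits without single arrays were chosen after seeing the data. Apart from the OICR-9429 fit with the block, the share of all probe sets called was not taken under the alternatives. A shift in these counts can thus not be called particular to the AP-1 genes. The cause of these changes was not tested, beyond the fewer arrays or probe sets in each fit. No alternative with another probe set of a gene was run, since each AP-1 gene had 1.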
